A study of Mus musculus with 10 samples.

Results

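The UDP-glucuronosyltransferase (UGT) genes described here are 10 mouse genes: Ugt1a1, Ugt2a3, Ugt2b1, Ugt2b5, Ugt2b34, Ugt2b35, Ugt2b36, Ugt2b38, Ugt3a1 and Ugt3a2. They were found by matching the accession of each array probe to RefSeq mouse symbols. A probe was found for 9 of the 10, of 21613 named genes and 55681 probes in all, and 2 of the 9 genes had a second probe, so 11 probes were read. No probe carried the accession of Ugt1a1, the gene of the bilirubin-conjugating enzyme, so it has no value here. All 9 measured genes were well above background on all 10 arrays.

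The data are Agilent 1-colour mouse expression arrays of liver RNA, 1 array per mouse, from 10 male mice of the TG221 strain. All carried a miR-221 transgene on a B6D2F2 background and entered the study at 4 to 6 weeks of age. Every mouse was gavaged with carbon tetrachloride (CCl4), a toxin that injures hepatocytes and scars the liver, at 20% v/v in olive oil, on a schedule of 3 doses weekly over 14 weeks. Metformin, an antidiabetic biguanide, was added for 6 mice at 300 mg/kg daily, beginning after 3 weeks of CCl4, while 4 mice had no metformin. Tissue was collected at week 24. Liver is the labelled tissue and hepatocellular carcinoma the labelled cell type; the labels do not say how much of a sample was tumour, and they do not name the promoter that drives the transgene. No mice without CCl4 were included, so metformin plus CCl4 is compared with CCl4 alone and not with an uninjured liver. Each group was also on a slide of its own, so a difference cannot be assigned to metformin alone.

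UGT enzymes sit in the endoplasmic reticulum and join a sugar, usually glucuronic acid taken from UDP-glucuronic acid, to bilirubin, steroids, bile acids and drugs, which makes them water-soluble for excretion in bile and urine. The liver is a main site of this reaction. Enzymes of the UGT3A subfamily are known to take other UDP sugars, the Ugt1a enzymes share their last exons at a single locus, and the Ugt2 genes lie side by side as near copies of each other.

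The starts of the Ugt2b genes are shown first because these genes are neighbours of common origin that did not all move together. The bases just before the gene start are given 5′ to 3′ on the gene's strand, from RefSeq on build GRCm38.p6. Capitals mark the match to GTTA, any 4 bases, then TTAAC, a pattern these promoters share. The pair with a lower signal under metformin, Ugt2b1 (chr5:86926504-86926753, minus strand) and Ugt2b35 (chr5:87000610-87000859, plus strand), is printed over 250 bases. The last 100 bases are printed for Ugt2b34 (chr5:86906938-86907037), Ugt2b36 (chr5:87092556-87092655), Ugt2b5 (chr5:87140341-87140440), Ugt2b37 (chr5:87254789-87254888) and Ugt2b38 (chr5:87424204-87424303), all on the minus strand.
Ugt2b1: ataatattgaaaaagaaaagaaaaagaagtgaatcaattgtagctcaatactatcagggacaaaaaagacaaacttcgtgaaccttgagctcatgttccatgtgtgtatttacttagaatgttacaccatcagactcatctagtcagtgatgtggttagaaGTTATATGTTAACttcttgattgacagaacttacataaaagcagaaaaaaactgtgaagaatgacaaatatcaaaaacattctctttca
Ugt2b35: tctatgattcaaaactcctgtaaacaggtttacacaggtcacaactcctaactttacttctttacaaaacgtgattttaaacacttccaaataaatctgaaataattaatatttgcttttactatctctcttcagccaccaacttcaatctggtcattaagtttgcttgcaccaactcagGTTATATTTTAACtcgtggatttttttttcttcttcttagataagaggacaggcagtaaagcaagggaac
Ugt2b34: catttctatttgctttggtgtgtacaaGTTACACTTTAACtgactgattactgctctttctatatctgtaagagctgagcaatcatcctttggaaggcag
Ugt2b36: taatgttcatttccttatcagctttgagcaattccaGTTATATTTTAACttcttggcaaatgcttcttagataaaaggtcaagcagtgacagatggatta
Ugt2b5: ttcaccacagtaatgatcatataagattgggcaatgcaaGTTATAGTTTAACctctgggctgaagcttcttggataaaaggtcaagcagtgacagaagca
Ugt2b37: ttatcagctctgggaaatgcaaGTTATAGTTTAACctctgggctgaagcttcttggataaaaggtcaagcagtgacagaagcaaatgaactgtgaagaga
Ugt2b38: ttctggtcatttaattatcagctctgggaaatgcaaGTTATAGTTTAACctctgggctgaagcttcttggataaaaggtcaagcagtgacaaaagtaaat

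The pattern of GTTA, any 4 bases and TTAAC, searched on both strands of the 250 bases before the gene start, was found in 7 of the 9 listed genes with a promoter entry, among them all 6 Ugt2b genes and Ugt3a1. Of 32841 RefSeq promoters of the same length, 56 held it, which is 0.171%. The pattern was chosen after the sequences and the calls had been seen, so these counts describe the promoters and test nothing. The match began 89 bases before the gene start in Ugt2b1, 70 in Ugt2b35, 73 in Ugt2b34, 64 in Ugt2b36, 61 in Ugt2b5, 64 in Ugt2b38 and 130 in Ugt3a1. It was in the promoters of Ugt2b genes whose signal fell and of Ugt2b genes that were not called. The 4 middle letters differed: they read GTTATATGTTAAC in Ugt2b1, GTTATATTTTAAC in both Ugt2b35 and Ugt2b36, GTTATAGTTTAAC in Ugt2b5 and Ugt2b38, and GTTACACTTTAAC in Ugt2b34. Ugt1a1 and Ugt2a3 held no match in this window, and Ugt3a2 had no entry.

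The core letters of the aryl hydrocarbon receptor element, GCGTG, and of the antioxidant response element, TGACNNNGC, were searched on both strands of the same 250 bases. They were in 28.2% and 10.2% of all promoters and in 0 of the 9 listed genes with an entry. Sites farther from the gene start were not searched, and some of these promoters resemble each other, so the count describes this window only. The Ugt2b38 and Ugt2b5 promoters were 81.5% identical over 250 bases, and that of Ugt2b38 was 85.2% identical to that of Ugt2b37, the measured Ugt2b gene outside the 10. The Ugt2b1 promoter was 49% to 53.7% identical to the other Ugt2b promoters printed. Ugt2b34, which was not called, was as far from the others (50.2% to 54%), and neither Ugt2b35 nor Ugt2b36 had a partner above 60.4%.

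Of the 9 measured genes, Ugt2b1, Ugt2b35 and Ugt3a2 were lower in the livers of mice given metformin and the other 6 were not called. Ugt2b1 had the widest difference, 2.66-fold. None was called higher by limma, and 1, Ugt3a1, was higher at an unadjusted p below 0.05 and in every metformin mouse than in every CCl4 mouse. A gene was called when limma's adjusted p, over all 55681 probes, was below 0.05. Calls are common in this comparison: 21.5% of all probes passed, 8.7% as lower and 12.8% as higher, and 27% of the named genes passed, 11.1% as lower and 15.9% as higher. Among 13239 named genes that, like these 9, were well above background on all 10 arrays, 38.3% passed, 15.2% as lower and 23% as higher. Read in either direction, 3 calls of 9 are near the 38.3% of well-detected genes. All 3 were lower, beside a lower share of 15.2%, and 0 were higher, beside 23%. Whether these counts differ from the background was not tested. The median difference of the 9 genes was -0.077 on the log2 scale, against 0.080 for the well-detected genes and 0.022 for all probes.

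Values below are log2 signals relative to the 75th percentile of the mouse's own array, and differences are metformin plus CCl4 minus CCl4. Each gene is represented by its brightest probe. Because probes bind their targets with different strength, levels of different genes are not ranked. The sequences of the probes were not used here, and near copies in this family can share signal; cross-hybridisation was not tested.

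**Figure D1:**
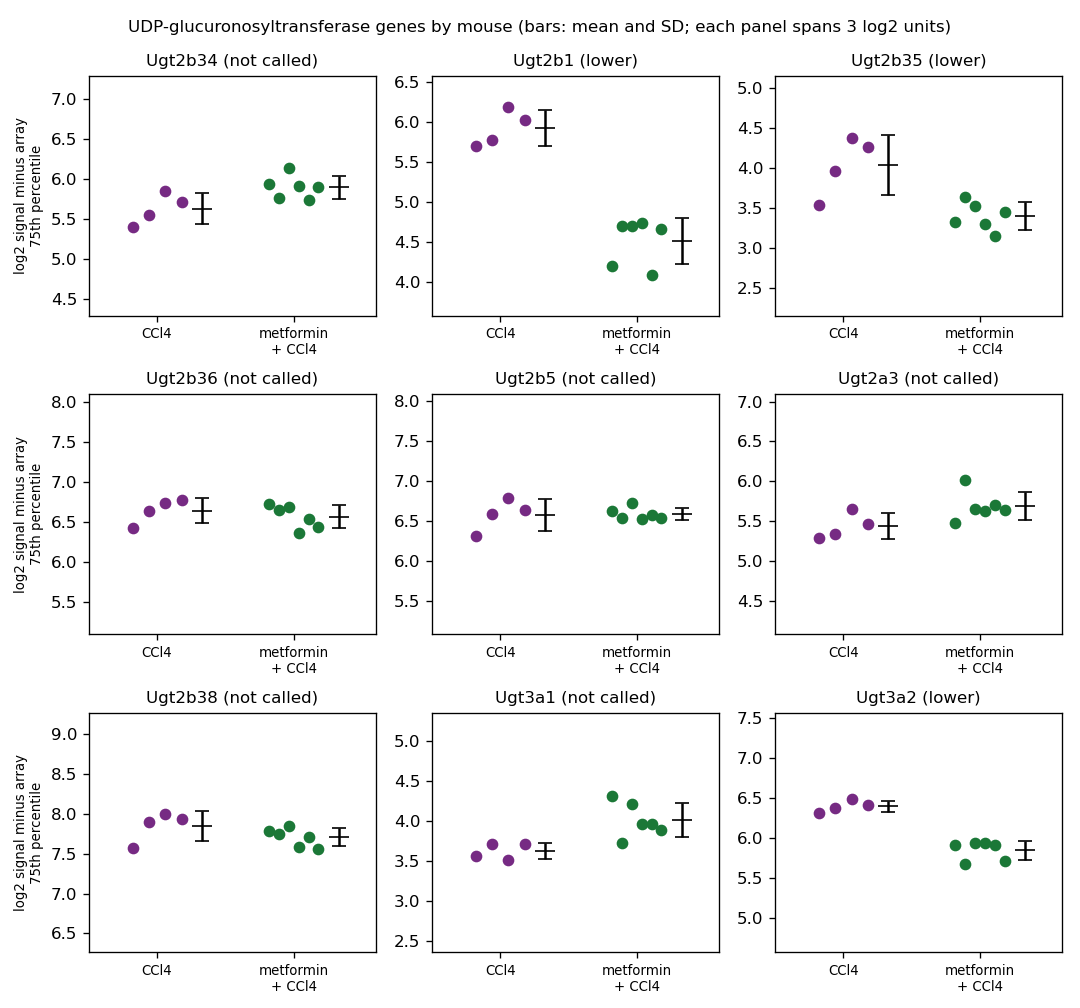
Log2 signal minus the array's 75th percentile (vertical axis, 3 log2 units in each panel) for the brightest probe of 9 UGT genes, in 4 mice given CCl4 and 6 given metformin plus CCl4. Each point is a mouse and each bar gives a group's mean and SD. Ugt2b1 and Ugt3a2 are lower in all 6 metformin mice, the Ugt2b35 groups overlap, and Ugt3a1 is higher in all 6.

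Ugt2b1 is a liver enzyme of the UGT2B subfamily, which conjugates steroids, bile acids and drugs. The Ugt2b1 log2 signal was 5.70, 5.78, 6.18 and 6.03 in CCl4 mice 1 to 4, and it ran from 4.08 to 4.73 with a median of 4.67 in the 6 metformin mice. The groups were separated by almost a full log2 unit, and metformin mice 1 and 5, at 4.19 and 4.08, were lowest. The Ugt2b1 difference was -1.41 ± 0.17 (SE; 95% interval -1.79 to -1.03; limma adjusted p = 0.000424), with means of 5.92 ± 0.22 (SD, n = 4) and 4.51 ± 0.29 (SD, n = 6). It was -1.48 among slide row 1 arrays alone (metformin mice 1 and 2 against all 4 CCl4 mice; limma adjusted p = 0.0208) and -1.54 in the authors' deposited table.

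All metformin arrays were on one slide and all CCl4 arrays on another, each with its own scan. Slide, scan and treatment cannot be told apart for any gene here. Within a tissue sample, fewer cells of a type and less RNA per cell cannot be told apart either. Markers of hepatocytes, the cells that make most liver UGT, were lower for 3 of 14 measured genes (Apoa1, Cps1 and Tat), higher for 0, and had a median difference of -0.15. Their summed signal, in multiples of the 75th percentile, ran from 8154 to 10415 in metformin mice and from 9478 to 11862 in CCl4 mice, so the ranges overlap, and 14 of the 14 were well above background on all arrays. Their part in the UGT differences was not tested.

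Ugt2b35 lies next to Ugt2b1 in RefSeq's order of protein-coding genes. The Ugt2b35 log2 signal was 3.54, 3.97, 4.38 and 4.26 in CCl4 mice 1 to 4 and ran from 3.15 to 3.63, median 3.39, in metformin mice. CCl4 mouse 1 lay inside the metformin range, and the other 3 CCl4 mice lay above it. The Ugt2b35 difference was -0.64 ± 0.17 (SE), a 1.56-fold lower signal (limma adjusted p = 0.0225). The call depended on single mice: without CCl4 mouse 3 the difference was -0.53 (limma adjusted p = 0.0733), and without CCl4 mouse 4 it was -0.57 (limma adjusted p = 0.0655). Among slide row 1 arrays it was -0.56 (limma adjusted p = 0.177).

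The second Ugt2b35 probe was dimmer and gave a wider difference. It read 0.85, 1.31, 2.01 and 1.76 in the CCl4 mice and from -0.13 to 0.37, median 0.15, in the metformin mice, with no overlap. That probe's difference was -1.33 ± 0.21 (SE), or 2.52-fold lower (limma adjusted p = 0.0015). The Ugt2b35 probes therefore shared a direction and not a size, and which of them follows the transcript more closely was not tested.

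Ugt3a2 encodes an enzyme of the subfamily that uses other UDP sugars. The Ugt3a2 log2 signal was 6.32, 6.37, 6.49 and 6.42 in CCl4 mice 1 to 4 and ran from 5.68 to 5.94, median 5.91, in metformin mice. All 6 metformin mice lay below all 4 CCl4 mice, and the mice of each group were close together. The Ugt3a2 difference was -0.55 ± 0.10 (SE), a 1.46-fold lower signal (limma adjusted p = 0.00312), and -0.60 among slide row 1 arrays (limma adjusted p = 0.0439). Its second, dimmer probe was also lower without overlap, by a difference of -0.35 ± 0.10 (SE; limma adjusted p = 0.0348).

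Ugt3a1, the neighbour of Ugt3a2 on chromosome 15, went the other way without a call. The Ugt3a1 log2 signal was 3.56, 3.71, 3.51 and 3.71 in CCl4 mice and ran from 3.73 to 4.31, median 3.96, in metformin mice. The groups do not overlap, but metformin mouse 2, at 3.73, lay just above the highest CCl4 mice. The Ugt3a1 difference was 0.39 ± 0.13 (SE; limma adjusted p = 0.0594). Without metformin mouse 2 it was 0.44 (limma adjusted p = 0.0295), and scaled to spike-in controls it was -0.16 (limma adjusted p = 0.501), so its direction rests on the scaling.

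Groups did not overlap for 3 of the 9 genes: Ugt2b1 and Ugt3a2 lower, Ugt3a1 higher. Groups did not overlap for 18.8% of all probes (7.41% lower), 24.9% of named genes (9.8% lower) and 36.8% of well-detected named genes (14% lower), so such a count does not set these genes apart.

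The remaining 5 genes were not called. The Ugt2b34 difference was 0.27 ± 0.12 (SE; limma adjusted p = 0.162), and that of Ugt2a3, whose human counterpart conjugates bile acids, was 0.25 ± 0.13 (SE; limma adjusted p = 0.217). Metformin mouse 2 was the highest for Ugt2a3, at 6.02 against 5.48 to 5.71 in the other metformin mice and 5.29 to 5.66 in CCl4 mice. Ugt2b38 differed by -0.15 (95% interval -0.40 to 0.11), Ugt2b36 by -0.08 (-0.34 to 0.18) and Ugt2b5 by 0.01 (-0.23 to 0.26). Their intervals leave out a change as wide as that of Ugt2b1; they do not show that these genes stayed the same.

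**Figure D2:**
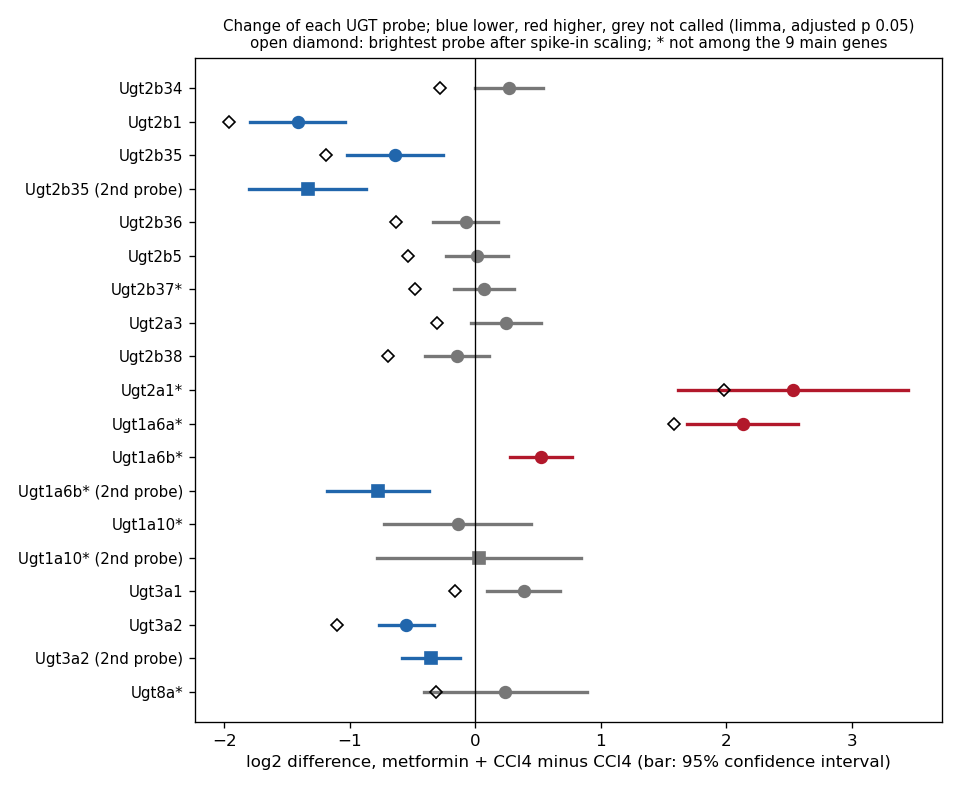
Log2 difference, metformin plus CCl4 minus CCl4 (horizontal axis), of each UGT probe, with 95% confidence intervals; circles are a gene's brightest probe, squares a second probe, and an asterisk marks genes outside the 9. Open diamonds give the brightest probe after spike-in scaling, drawn for all genes but Ugt1a6b and Ugt1a10, and lie to the left of the circles. Ugt2b1, at -1.41, is farthest left and Ugt2a1, at 2.53, farthest right.

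The scaling matters for directions in this family. Subtracting each array's spike-in controls in place of the 75th percentile moved the median difference of all probes from 0.022 to -0.53, and 94.82% of the calls were then lower, against 40.4% before. On that scale 6 of the 9 genes were called lower, with Ugt2b5 at -0.54, Ugt2b36 at -0.63 and Ugt2b38 at -0.70 added, beside the shift of -0.53 of the probes as a whole. Ugt2b1 at -1.96, Ugt2b35 at -1.19 and Ugt3a2 at -1.10 stayed below that shift. Array-median scaling and quantile normalization also moved the share of lower calls, to 48.25% and 48.18%.

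A comparison of neighbours within each mouse needs no scaling between arrays, since a shift of the whole array cancels. The signal of a gene minus that of its measured neighbour among the 9 was taken in every mouse, and the groups were compared by an exact permutation test over all 210 splits of the 10 mice. This comparison was added after the data had been seen, for 7 pairs, with p-values adjusted over the 7. It reuses the signals that gave the calls, so it is no separate evidence for them. Where a gene's groups already lay far apart, as for Ugt2b1, a gap without overlap was likely from the start. For Ugt3a1 against Ugt3a2 it was certain, since their groups already lay apart in opposite directions. The pairs describe changes relative to a neighbour. Its smallest possible two-sided p is 0.00476.

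On chromosome 5 the measured genes come in the order Ugt2b34, Ugt2b1, Ugt2b35, Ugt2b36, Ugt2b5, Ugt2a3 and Ugt2b38, with Ugt2b37 and several pseudogenes between them. Ugt2b1 moved down against Ugt2b34 on one side, by 1.68 log2 units in the gap between them (exact permutation p = 0.00476, adjusted 0.00833). Ugt2b35 moved down against Ugt2b36, with a difference in the gap of -0.56 (exact permutation p = 0.00476, adjusted 0.00833). Neither pair overlapped between groups, so Ugt2b1 and Ugt2b35 were lowered relative to the measured gene on the outer side of each. Between Ugt2b1 and Ugt2b35 themselves the answer rested on the probe. With the brightest Ugt2b35 probe the gap differed by -0.77, without overlap (exact permutation p = 0.00476, adjusted 0.00833). With the second Ugt2b35 probe it differed by -0.079, with overlap (exact permutation p = 0.724, adjusted 0.724 over the 3 pairs that have a second probe). Which of the neighbours was lowered more is therefore not settled. The second Ugt2b35 probe gave -1.26 against Ugt2b36, again without overlap (exact permutation p = 0.00476, adjusted 0.00714).

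Farther along, the gap of Ugt2b36 to Ugt2b5 differed by -0.089 (exact permutation p = 0.2, adjusted 0.2) and that of Ugt2b5 to Ugt2a3 by -0.24 (exact permutation p = 0.0619, adjusted 0.0722). Ugt2a3 moved up against Ugt2b38, by 0.39, although these groups overlap (exact permutation p = 0.0143, adjusted 0.02). On chromosome 15 Ugt3a1 moved up against Ugt3a2 by 0.94, without overlap (exact permutation p = 0.00476, adjusted 0.00833), and by 0.74 with the second Ugt3a2 probe (exact permutation p = 0.00476, adjusted 0.00714). The unequal change of the 2 Ugt3a genes is untouched by a shift of the whole array, although the direction of Ugt3a1 alone is not. Both p-values of this pair were fixed in advance, because Ugt3a1 was higher and both Ugt3a2 probes lower without overlap. Other effects of slide or scan on the gap were not tested.

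Genes of the family also varied between mice of the same group. With each group's mean removed, Pearson's r over the 10 mice had a median of 0.43 over the 36 pairs of the 9 genes and ran from -0.70 to 0.92. These pooled values can hide unlike groups. Ugt2b5 with Ugt2b35 had 0.97 in the 4 CCl4 mice alone and 0.14 in the 6 metformin mice alone. For Ugt2a3 with Ugt2b34 the values were 0.96 and -0.50. In the other direction, Ugt3a1 with Ugt3a2 had -0.31 in CCl4 mice and 0.73 in metformin mice. High values were the rule in the 4 CCl4 mice and not particular to these pairs. Every pair without Ugt3a1 had at least 0.74 there, the lowest being Ugt2a3 with Ugt2b36. All points share the array, its scaling and its RNA sample, and the median rose to 0.73 with array-median scaling and to 0.86 with spike-in scaling, so r is given as a description. Pairs above 0.8 were 3: Ugt2b5 with Ugt2b38 (0.92), Ugt2b36 with Ugt2b38 (0.92) and Ugt2b5 with Ugt2b34 (0.85). Ugt2b37 followed Ugt2b5 with 0.985 and Ugt2b38 with 0.949. Shared signal between these near copies was not tested.

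Ugt2b1 went with Ugt2b35 (0.73), and also with the uncalled Ugt2b34 (0.60) and Ugt2a3 (0.53), more than with Ugt2b36 (0.07) or Ugt2b38 (0.20). Ugt2b35 in turn had pooled values about as high with the uncalled Ugt2b5 (0.78) and Ugt2b38 (0.73), but the groups taken alone were unlike. In the metformin mice alone Ugt2b35 had 0.72 with Ugt2b1, 0.14 with Ugt2b5 and 0.24 with Ugt2b38. In the CCl4 mice alone the values were 0.93, 0.97 and 0.96. Ugt2a3 ran against Ugt3a1 (-0.70 over the 10 mice). Among 13227 named genes outside the family, the 3 with the closest course to Ugt2b1 over the 10 mice, group means removed, were Zfp30 (0.93), Myh14 (0.92) and 2610044O15Rik8 (0.91). A search of 13227 genes over 10 mice picks out high values by itself. Whether unrelated genes would reach these was not tested. Being close within groups did not mean changing alike between them: Zfp30 rose by 0.93 (limma adjusted p = 0.0172), 2610044O15Rik8 rose by 1.88 (limma adjusted p = 9.59e-05) and Myh14 was at -0.017 (limma adjusted p = 0.948). The same search was planned for Ugt1a1 and could not be made without a probe.

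**Figure D3:**
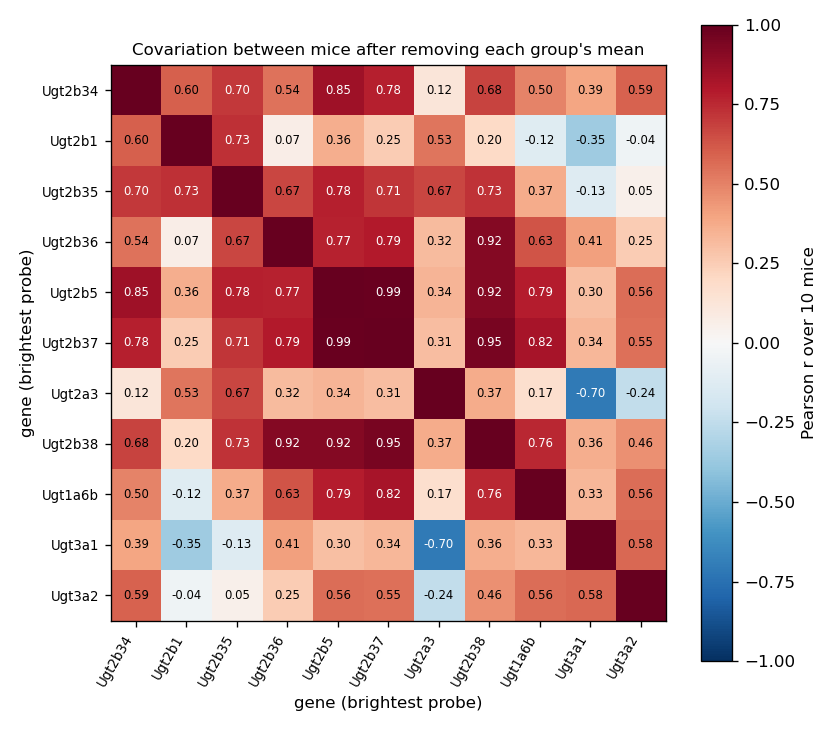
Pearson r over 10 mice between UGT genes after each group's mean was removed, coloured from -1 to 1 with the value in each cell; genes of chromosome 5 come first in their order, then Ugt1a6b and the Ugt3a pair. The block of Ugt2b36, Ugt2b5, Ugt2b37 and Ugt2b38 is high, with 0.985 between Ugt2b5 and Ugt2b37, and Ugt2b1 shows its highest value, 0.73, with Ugt2b35.

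Of 12 further UGT genes, 6 had a probe, and by their brightest probe 3 of these were called higher and 0 lower, 1 of the 3 with probes in opposite directions. Ugt1a6a, whose enzyme conjugates small planar phenols, read -4.27, -4.16, -4.79 and -5.00 in CCl4 mice and from -2.86 to -2.11, median -2.36, in metformin mice. The groups lay far apart, but the CCl4 mice were well above background on only 1 of 4 arrays. Ugt1a6a rose by 2.13 ± 0.20 (SE; limma adjusted p = 0.000135), and by 0.60 (limma adjusted p = 0.000663) after another background correction (normexp, offset 50). Ugt2a1, best known from olfactory tissue, rose by 2.53 ± 0.41 (SE; limma adjusted p = 0.0018), also from a level well above background on 1 of 4 CCl4 arrays. With that background correction the Ugt2a1 difference was 0.54, and among slide row 1 arrays it was 2.40 (limma adjusted p = 0.0729).

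Ugt1a6b had a bright probe that rose by 0.52 ± 0.11 (SE; limma adjusted p = 0.00746) and a dimmer one with a difference of -0.77 (limma adjusted p = 0.0128). The 2 probes are in opposite directions, so no direction is given for Ugt1a6b as a gene. Ugt2b37 differed by 0.07 (limma adjusted p = 0.737), Ugt1a10 by -0.14 (limma adjusted p = 0.787), and Ugt8a, which makes galactolipids of myelin, was not well above background on any array.

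The reaction needs UDP-glucuronic acid, which is made from UDP-glucose. Of 6 genes listed for the supply and use of UDP-glucuronic acid, Pgm1 rose by 0.35 (limma adjusted p = 0.0377), while Pgm2 fell by 0.91 (limma adjusted p = 0.00917) and Uxs1 fell by 0.54 (limma adjusted p = 0.00596). Uxs1 is known to turn UDP-glucuronic acid into UDP-xylose, and both its probes were lower without overlap. Ugdh, the dehydrogenase that makes UDP-glucuronic acid, differed by -0.36 (limma adjusted p = 0.214), Ugp2, which makes UDP-glucose, by 0.28 (limma adjusted p = 0.29) and Slc35d1, a carrier of the sugar into the endoplasmic reticulum, by -0.19 (limma adjusted p = 0.261). Pgm2 was not called among slide row 1 arrays, at -0.69 (limma adjusted p = 0.114), nor Uxs1, at -0.38 (limma adjusted p = 0.116). None of 4 genes that lead glucuronate towards ascorbate was called by limma, and 1, Akr1a1, was lower at an unadjusted p below 0.05.

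Of 10 genes for the hydrolysis and transport of glucuronides, 1 was called. Slco1b2, a sinusoidal carrier that takes up bilirubin and its conjugates, read 7.09, 7.30, 7.61 and 7.57 in CCl4 mice and from 8.04 to 8.32, median 8.19, in metformin mice, without overlap. Slco1b2 rose by 0.78 ± 0.13 (SE; limma adjusted p = 0.0017), but the call was lost with spike-in scaling, at 0.23 (limma adjusted p = 0.404), and among slide row 1 arrays, at 0.75 (limma adjusted p = 0.0634). Gusb, the lysosomal beta-glucuronidase, differed by -0.09 (limma adjusted p = 0.683), Abcc2, the canalicular exporter of glucuronides, by 0.04 (limma adjusted p = 0.87) and Abcc3, their basolateral exporter, by 0.39 (limma adjusted p = 0.385).

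Bilirubin comes from haem, and 2 of the 4 genes of that step fell. Hmox1, the inducible haem oxygenase, read 3.18, 2.64, 3.06 and 2.39 in CCl4 mice and from 1.58 to 2.24, median 1.76, in metformin mice, without overlap. Hmox1 fell by 0.94 (limma adjusted p = 0.00649), and was at -0.84 among slide row 1 arrays (limma adjusted p = 0.112). Hmox2, its constitutive relative, fell by 0.32 (limma adjusted p = 0.0422), a call lost in 11 of 22 other settings, among them every left-out mouse but metformin mouse 5 and CCl4 mouse 4; the highest limma adjusted p of these was 0.122, without CCl4 mouse 2. The second, dimmer Hmox2 probe differed by -0.72, lower without overlap (limma adjusted p = 0.00135). Blvrb, a biliverdin reductase, differed by 0.27 (limma adjusted p = 0.258). Macrophages also make Hmox1: 5 of 10 macrophage markers and 3 of 4 erythroid markers were lower, with 0 higher. The summed macrophage signal ran from 66.8 to 119 in metformin mice and from 94.7 to 119 in CCl4 mice, and the summed erythroid signal from 122 to 207 and from 258 to 412. Their part in the Hmox1 difference was not tested.

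Of 16 transcription factors and partners known to act on UGT genes, 7 rose and 1 fell, with a list median of 0.32. Ppara, the fatty acid receptor, rose by 1.96 ± 0.34 (SE; limma adjusted p = 0.00245), from 4.93, 3.49, 3.16 and 3.96 in CCl4 mice to a range of 5.35 to 6.50, median 5.80. Among slide row 1 arrays the Ppara difference was 1.93 (limma adjusted p = 0.0702). Nfe2l2, the regulator of the antioxidant response, rose by 1.76 ± 0.20 (SE; limma adjusted p = 0.000332). Foxa1, Foxa2, Keap1, Nr1h4 and Nr1i3 also rose. Nr1i3, the constitutive androstane receptor, rose by 0.88 (limma adjusted p = 0.0415), a call lost in 15 of 22 other settings, among them every left-out mouse but metformin mice 2 and 4 and CCl4 mouse 3; the highest limma adjusted p of these was 0.124, without CCl4 mouse 1. Ahr, the aryl hydrocarbon receptor, fell by 0.51 (limma adjusted p = 0.0226), but Ahr missed the threshold when CCl4 mouse 1, 2 or 3 was left out, at -0.49, -0.52 and -0.47 (limma adjusted p = 0.0636, 0.0546 and 0.0717).

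Hnf4a, a nuclear receptor of hepatocyte identity, was at 0.21 (limma adjusted p = 0.395). Nr1i2, the pregnane X receptor, was at -0.40 (limma adjusted p = 0.133), and at -0.55 without CCl4 mouse 4 (limma adjusted p = 0.031). Against a share of 23% higher among well-detected genes, 7 of 16 regulators were called higher; whether that share differs from the background was not tested.

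Other target genes of those receptors did not share 1 direction. Cyp4a14, a target of the fatty acid receptor, rose by 3.92 ± 0.99 (SE; limma adjusted p = 0.017), although metformin mouse 4 read 2.15 beside a median of 6.58. Without CCl4 mouse 4 the Cyp4a14 difference was 3.36 (limma adjusted p = 0.0519). Cyp1a2, a target of the aryl hydrocarbon receptor, fell by 1.21 (limma adjusted p = 0.00209; -1.11 with 0.0558 among slide row 1 arrays), and Aldh1a7 fell by 0.53 (limma adjusted p = 0.00898). Cyp3a11 was at -0.21 (limma adjusted p = 0.351) with its brightest probe and at -1.40 (limma adjusted p = 0.000435) with its second one. Cyp2b10 differed by -0.93 (limma adjusted p = 0.32) and Nqo1 by -0.36 (limma adjusted p = 0.354).

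Sulfation is the parallel route of conjugation, and 5 of its 18 measured genes rose while 1 fell. Of the 18, 11 were well above background on all arrays and 5 on none. Among all named genes 15.9% were called higher and 11.1% lower, and among well-detected named genes 23% and 15.2%. Whether the sulfation counts differ from these shares was not tested. Sult2a7, a hydroxysteroid sulfotransferase, rose by 1.40 ± 0.23 (SE; limma adjusted p = 0.00174), and Sult1d1 rose by 1.06 ± 0.18 (SE; limma adjusted p = 0.00247). With spike-in scaling Sult1d1 was at 0.51 (limma adjusted p = 0.139). Sult1a1, Sult1b1 and Sult1c2 also rose. Papss1, which makes the sulfate donor, fell by 1.03 (limma adjusted p = 0.00127), and its relative Papss2 was at 0.47 (limma adjusted p = 0.129), and at 0.57 without metformin mouse 1 (limma adjusted p = 0.0474).

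**Figure D4:**
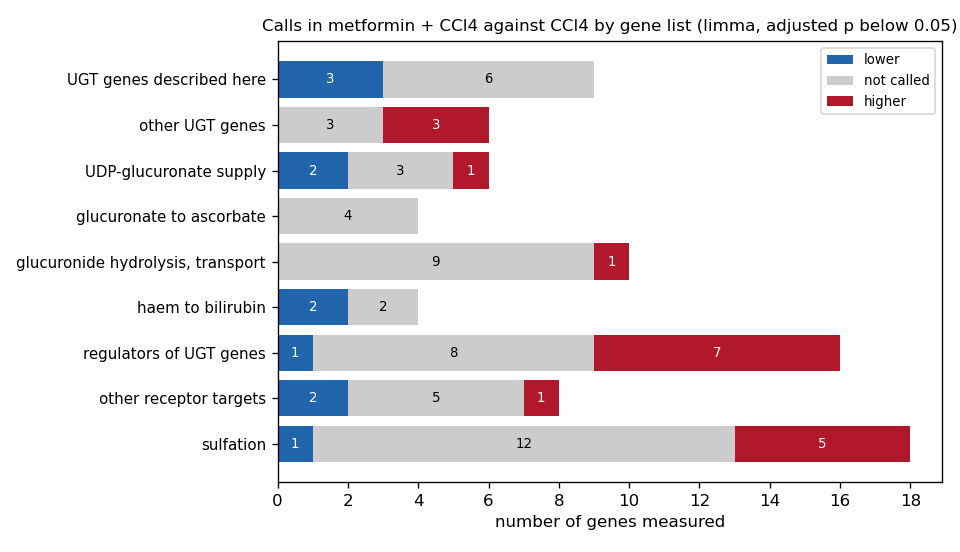
Number of measured genes (horizontal axis) called lower, not called or called higher in metformin plus CCl4 against CCl4 for the 9 UGT genes and 8 related gene lists. The UGT genes described here have 3 lower and 0 higher of 9, regulators 1 lower and 7 higher of 16, and sulfation 1 lower and 5 higher of 18. Among all named genes 11.1% were called lower and 15.9% higher.

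Markers of other cells moved in the same comparison. Of stellate cell and myofibroblast markers 6 of 10 fell, with a median of -0.93 and a summed signal of 12.6 to 22.2 against 21.3 to 35.4. Of endothelial markers 3 of 8 fell, of neutrophil markers 4 of 6 and of cholangiocyte markers 2 of 7, where 1 rose; of 8 lymphocyte markers none was called by limma, and 0 had an unadjusted p below 0.05. Among markers of zones of the liver lobule, 3 of 9 pericentral genes rose and 2 fell, and 2 of 9 periportal genes fell. Of those that rose, Axin2 was well above background on 1 of 6 metformin and 0 of 4 CCl4 arrays. Its groups overlapped, and its other probe was at 0.28 (limma adjusted p = 0.615). Among all named genes 11.1% were called lower and 15.9% higher, and among well-detected ones 15.2% and 23%. Whether the marker counts differ from these shares was not tested. The part of these cells in the UGT differences was not tested.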

How the data were processed

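Liver RNA of 10 mice was measured on 10 arrays, 6 from mice given metformin plus CCl4 and 4 from mice given CCl4; titles gave each array's group and mouse number. RNA (100 ng per mouse) had an integrity number above 8. Agilent Feature Extraction 10.7.3.1 made the deposited linear intensity of each spot, per the file headers. This processed value was background-subtracted and spatially detrended, with no normalization between arrays. The authors also deposited a table of quantile-normalized log2 values of 4595 probes, filtered on FDR and fold change, per the file headers. The test behind that filter is not given in the sources used here. Its columns followed the scanner values with r of 0.9997 to 1.00, which settles scale and direction, and had medians of 7.87, 7.88, 7.84, 7.78, 7.81 and 7.81 (metformin mice) and 7.76, 7.79, 7.83 and 7.84 (CCl4 mice); any centring is unknown. The scanner software's flags (background, saturation, irregularity) were used as deposited.

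Each spot's log2 intensity was set against the 75th percentile of the non-control spots on that array, irregular spots (135 to 179 per array) were left out, and spots of a probe were averaged, giving 55681 probes. The 75th percentile was an intensity of 237 to 363, 51.2% to 54.9% of probes were well above background, and none was saturated. Probe accessions were matched to the RefSeq table of GRCm38.p6, used for names and gene order only, since the arrays' grid names another build; 28664 probes received a symbol. Groups were compared with limma 3.58.1 under R 4.3.3 (moderated two-sided test by lmFit and eBayes, Benjamini-Hochberg over all probes). The number of arrays limits the precision. Promoters were aligned with Biopython 1.88. Named were all members, a set of listed pathway genes, and at most the 2 called genes of widest difference in each list; other list genes are named where they make up a small count, and were chosen after their values were seen; some genes so named are not reported here. The members and lists were chosen with earlier results of these data known. Alternatives covered scaling, background correction, filters, probe choice, variance model, slide row, mouse number as a block and each mouse left out. The normexp correction (offset 50), planned on mean spot intensities, was run on the median ones.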

Additional observations from a re-analysis of the deposited data

Results flagged for a closer look

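Of 82 groups checked (the named genes in each treatment group), 2 held a mouse far from the rest of its group, by the gap to the nearest mouse divided by the range of the group. Chance marks about 1 in 20 groups. For Cyp4a14, the fatty acid hydroxylase gene, metformin mouse 4 was lowest, with a ratio of 0.629. For Hnf4a, CCl4 mouse 4 was lowest, with a ratio of 0.831. None of the 9 UGT genes had such a mouse.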

How the results depend on the processing

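Ugt2b1 was counted as unchanged in 23 of 23 other settings (-1.96 to -1.33), Ugt3a2 in 23 of 24 and Ugt2b35 in 19 of 24. These counts include the authors' deposited table, judged by direction alone because no p-value was available for it. They also include an exact permutation test whose p was not adjusted over the probes. For Ugt2b35 the authors' table held only the second probe. The 3 UGT genes called lower became 6 with spike-in scaling, and 2 to 3 with any 1 mouse left out. None of the UGT genes was called higher by limma as reported (1 at an unadjusted p below 0.05), against 2 with normexp (Ugt3a1 and Ugt2a3), 1 with only well-detected probes, 1 with a variance trend, 1 with array weights, and 0 to 1 with a mouse left out. Over the related lists, 8 genes were lower and 18 higher. Lower calls became 13 with quantile normalization, 30 with spike-in scaling and 3 in slide row 1 alone; higher calls became 8 with spike-in scaling and 9 in slide row 1 alone. The median r of UGT pairs, 0.43, was 0.73 with array-median scaling, 0.86 with spike-in scaling and 0.38 to 0.58 with a mouse left out. The causes were not tested.

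The mouse numbers in the titles name different mice and did not pair them: same-numbered mice had correlations of their deviations of -0.14, -0.16, 0.060 and -0.0026. With the number as a replicate block, 1 UGT gene (Ugt2b1) was lower, with 2 lower and 10 higher over the lists, and all calls fell from 8907 to 4232 on the same 8 arrays. Ugt3a2 was then at -0.53 (limma adjusted p = 0.0913).

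Directions of uncalled genes turned as follows. With spike-in scaling the differences were -0.30 for Ugt2a3, -0.54 for Ugt2b5, -0.28 for Ugt2b34, -0.16 for Ugt3a1, -0.27 for Ugp2, -0.51 for Abcc2, -0.16 for Abcc3, -0.34 for Hnf4a, -0.28 for Blvrb, -0.082 for Papss2, -0.48 for Ugt2b37 and -0.31 for Ugt8a. With array-median scaling Ugt2b5 was at -0.054 and Abcc2 at -0.022, and with quantile normalization Ugt2b5 was at -0.13, Abcc2 at -0.059 and Ugt2b37 at -0.049. With normexp Ugt8a was at -0.094. In slide row 1 alone, and with slide row as a covariate, Ugt2b36 was at 0.042, Gusb at 0.080, Abcc2 at -0.011 and Ugt8a at -0.43. With a mouse left out, Ugt2b5 ran from -0.078 to 0.081 (-0.014 without metformin mouse 3), Abcc2 from -0.0082 to 0.097 (-0.0073 without metformin mouse 3) and Ugt2b37 from -0.013 to 0.13.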
